A study of Homo sapiens with 6 samples.

Results

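ERK feedback genes were read in RNA from U87, an established human glioblastoma line: the MAP kinase phosphatase genes DUSP1, DUSP4, DUSP5, DUSP6 and DUSP7, the Sprouty genes SPRY2 and SPRY4, the related genes SPRED1 and SPRED2, and the transcription factor gene ETV5. They were taken by gene symbol, as a set drawn up with earlier results of these data known, and make up 10 of the 23290 genes in the deposited table. The 6 cultures grew in DMEM with 10% FBS, and every one was infected with a retrovirus. In 3 of them (shCTR) the virus carried a scramble vector, and in the other 3 (shC8) it carried a vector that silences Caspase-8, a protease that starts apoptosis from death receptors. The hairpin, its promoter and any selection of infected cells are not stated in the sources read. The design text names biological replicates without saying how cultures or infections were kept apart, so p-values reflect only how these libraries spread, which may be technical. Values are FPKM, mapped fragments scaled by transcript length and by the library's total.

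The ERK cascade carries signals from growth factor receptors through RAS, RAF and MEK to the ERK kinases. Active ERK switches on genes whose products damp the same cascade, so their RNA is commonly read as a gauge of ERK output. DUSP phosphatases remove the activating phosphates from MAP kinases. Sprouty and SPRED proteins act further up, between the receptor and RAF, and ETV5 is an ETS family transcription factor. ERK signalling is active in most glioblastomas, where receptor kinase genes and the RAS inhibitor gene NF1 are often altered.

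The targeted gene, CASP8, gave 15.1, 14.9 and 13.4 FPKM in the shCTR replicates and 4.39, 4.46 and 4.44 in those of shC8. Every shC8 library was below every shCTR library (exact two-sided permutation p = 0.1, the smallest that 3 against 3 libraries allow). Absolute depth was unknown, and steps among values under 0.05 FPKM put the other libraries at between 1.08 and 1.21 times the depth of shCTR 1. These are rough values. Each is the most common ratio, held by between 13 and 28 genes of the 255 to 313 read per library. The glioma markers VIM, S100A6 and ANXA1 were each at 815.6 FPKM or more in every library, while GFAP, OLIG2, SOX2 and S100B were under 1 FPKM in all 6. Of the 12 glioma markers, CD44 was called lower and NES and SPARC higher in shC8, and the part of this in the results was not tested. Of the leukocyte markers, AIF1 and CD3E were listed at 0 in every library. Their summed list lay between 149.8 and 157.9 FPKM in shCTR and between 137.0 and 153.2 in shC8, nearly all of it CD68. The endothelial list summed to at most 1.18 FPKM and the epithelial list to at most 1.85 FPKM in any library. Each deposited column name also ends in a number. Those of shCTR 1, shCTR 3 and shC8 1 are low and those of shCTR 2, shC8 2 and shC8 3 are high, and what the numbers mean is not stated.

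Promoter windows from RefSeq (build GRCh38.p14, from 250 bases before to 50 after a start site) were found for 7 of the 10 genes, all but DUSP4, DUSP5 and ETV5. They were searched on both strands for words known from this pathway. ETS factors such as ETV5 bind the core GGAA. A longer ETS site that contains this core was searched as CCGGAAG. CIC, a repressor that ERK inactivates, binds TGAATGAA and close variants of it, of which TGAATGGA, TCAATGAA and TCAATGGA were searched. The AP-1 site was searched as TGANTCA and the cyclic AMP response element as TGACGTCA. The E-box was searched as CACGTG, the TATA box as TATAAA, and the CArG box, the site of serum response factor, by its consensus. Among the 7 genes only DUSP6 held a CIC word, and it held it at 2 places, while 3.77% of all 35116 windows held any. The stretches that follow are shown because DUSP6 changed most of the 10 genes. They lie on either side of the start site on the minus strand, at chr12:89352512-89352531 and chr12:89352488-89352505, and the CIC word, read here on the opposite strand, is in capitals. GENCODE 29 places all 250 bases before this start inside exons of DUSP6, since its DUSP6 gene begins further upstream. Exons of the same gene also covered all 250 bases for SPRED1, 170 for SPRY4 and 38 for the first SPRED2 window.

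DUSP6, before the start: aatgtaTCCATTGAgacgct

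DUSP6, across the start: ttgtaTCCATTGAggagc

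The window of SPRED2 is shown for its ETS cores and that of DUSP1 as the most abundant phosphatase gene, whose RNA did not pass the test. The SPRED2 stretch (minus strand, chr2:65432675-65432804) shows 3 of the 6 ETS cores of its window in capitals, at 199, 107 and 84 bases before the start. Such counts do not set SPRED2 apart, since the DUSP6 window also held 6 and those of SPRY2 held 3, 4 and 5. The DUSP1 stretch (minus strand, chr5:172771215-172771330) shows in capitals the cyclic AMP response element, the E-box and the TATA box, at 125, 108 and 30 bases before the start.

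SPRED2: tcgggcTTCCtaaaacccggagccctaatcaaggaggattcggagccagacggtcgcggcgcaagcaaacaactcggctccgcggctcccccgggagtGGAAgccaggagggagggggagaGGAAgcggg

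DUSP1: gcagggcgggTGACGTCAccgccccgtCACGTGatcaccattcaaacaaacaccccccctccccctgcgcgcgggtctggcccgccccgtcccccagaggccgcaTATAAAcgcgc

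The ETS core was in 95.5% of all windows, and the windows of DUSP1 and DUSP7 lacked it. The cyclic AMP response element, found in 1.85% of windows, was in that of DUSP1 alone among the 7 genes. The E-box was in 7.26% of windows and the TATA box in 11.5%. A second start of SPRED2 had the AP-1 site at 2 places (7.71% of windows hold any) and a TATA box. The longer ETS site (10.3%) and the CArG box (1.29%) were in none of the windows of the 7 genes. These are matches of letters, and binding was not measured. The motifs and the stretches shown were chosen after matches had been seen.

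DUSP6, DUSP4, SPRED2 and ETV5 fell in shC8, and none of the 10 genes rose. All 10 genes were above the filter of a mean of at least 1 FPKM and were tested with limma on log2(FPKM + 1) among 11598 genes, with a call at p under 0.05 after Benjamini-Hochberg adjustment. The count of 4 falls in 10 genes stands beside 4.94% of all tested genes called lower and 12.1% called in either direction. Over all genes the split was 828 higher and 573 lower, and it turned with the scaling. Quantile normalization gave 715 higher and 731 lower (6.3% lower), with 4 of the 10 genes called lower, and median-of-ratios scaling gave 621 higher and 820 lower (7.07% lower), with 5 of the 10. Without the filter on low values 2 of the 10 were called lower, beside 2.15% of 18724 genes, and with low or high column number as a term 2 were, beside 4.41% of all tested genes. At an unadjusted p under 0.05, 6 of the 10 were lower and 0 higher, where 11.4% of all genes were lower. With the replicate number as a block 5 were called lower and 0 higher, where 10.6% of all genes were called lower. In 7 of the 10 genes every shC8 library was below every shCTR library, against 13.1% of all tested genes. The median log2 change of the 10 genes was -0.26, and that of all tested genes was 0.04. In bulk RNA, fewer cells with a transcript and less of it per cell cannot be told apart.

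**Figure D1:**
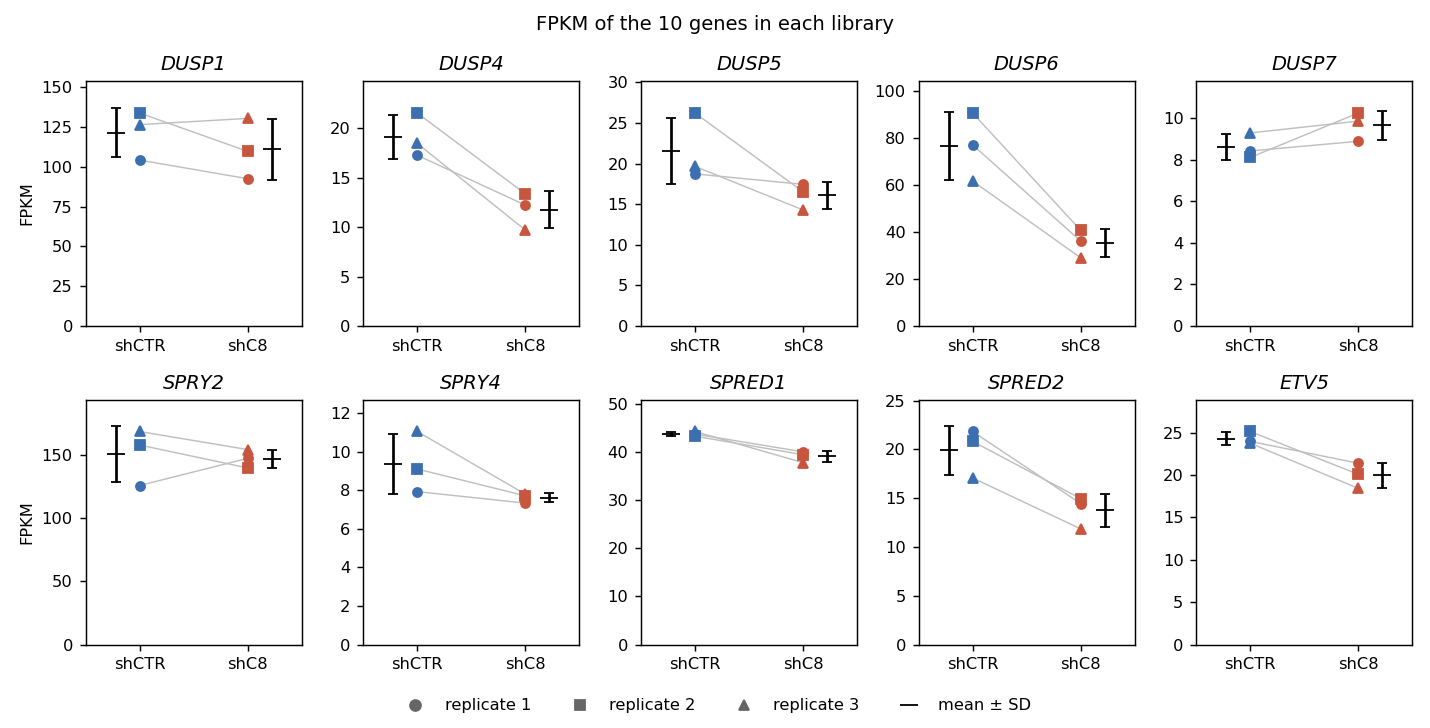
FPKM of each of the 10 genes (vertical axes, from 0) in the shCTR libraries (blue) and the shC8 libraries (red), with circles, squares and triangles for replicates 1, 2 and 3, grey lines joining libraries of the same number, and black bars for mean ± SD (n = 3). The groups are apart for 7 genes and overlap for DUSP1, DUSP7 and SPRY2.

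Among the phosphatases, DUSP6 changed most. It encodes a cytoplasmic phosphatase with a strong preference for ERK, and it lies on the minus strand of chromosome 12 (89347232 to 89353271, GRCh38). Replicates 1, 2 and 3 of shCTR gave 77.2, 90.8 and 61.8 FPKM, and those of shC8 gave 36.2, 40.8 and 29.1. The lowest control library was well above the highest silenced library. The log2 change was -1.09 (SE 0.163, limma adjusted p = 0.00873), and the call held in each of the 6 fits that left out 1 library (adjusted p up to 0.035). In both groups replicate 2 was highest and replicate 3 lowest. Same-numbered libraries stood in the same order in both groups, and the shC8 level was 46.9%, 44.9% and 47.1% of the shCTR level of the same number.

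DUSP7, the closest relative of DUSP6 among the 10, also encodes a cytoplasmic ERK phosphatase (minus strand of chromosome 3, 52048919 to 52056550). It gave 8.43, 8.12 and 9.30 FPKM across shCTR and 8.90, 10.3 and 9.87 across shC8. The groups overlapped, and the change of 0.15 did not pass (SE 0.0808, limma adjusted p = 0.257). DUSP7 alone of the 10 had a positive change, which stayed positive under every alternative run, between 0.10 and 0.20. The change of DUSP6 minus that of DUSP7 was -1.24 on the log2 scale (SE 0.255, n = 3 per group), with groups that did not overlap. An exact two-sided permutation test gave p = 0.1, the smallest this design allows, so the difference could not pass. DUSP6 RNA was 8.99 ± 2.27 times that of DUSP7 in shCTR and 3.66 ± 0.622 times in shC8 (SD, n = 3 each).

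DUSP4 and DUSP5 encode nuclear phosphatases that growth factors induce, DUSP5 with a preference for ERK. DUSP4 (minus strand of chromosome 8, 29333064 to 29350668) gave 17.3, 21.5 and 18.4 FPKM across shCTR and 12.2, 13.4 and 9.70 across shC8. The groups were apart, and the change was -0.66 (SE 0.126, limma adjusted p = 0.0187). Its call ended without shCTR 2 (-0.57, adjusted p = 0.0603) or without shC8 3 (-0.54, adjusted p = 0.0502).

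DUSP5 (plus strand of chromosome 10, 110497838 to 110511544) gave 18.7, 26.2 and 19.7 FPKM across shCTR and 17.4, 16.5 and 14.3 across shC8. Its groups were apart too, by little, since shCTR 1 and shC8 1 were close. The change of -0.39 did not pass (SE 0.133, limma adjusted p = 0.0991), while with the replicate block the adjusted p was 0.041. Without shCTR 2 the change was -0.25. The change of DUSP4 minus that of DUSP5 was -0.27 (SE 0.0913, exact two-sided permutation p = 0.1).

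DUSP1, an immediate early gene whose nuclear phosphatase acts on p38 and JNK as well as ERK, was the most abundant of the phosphatase RNAs. It lies on the minus strand of chromosome 5 (172768090 to 172771195). It gave 104.2, 133.8 and 126.5 FPKM across shCTR and 92.5, 109.7 and 130.4 across shC8. The groups overlapped, with shC8 3 above shCTR 1 and shCTR 3. The change was -0.14 (SE 0.141, limma adjusted p = 0.554). Without shC8 1 it was -0.01, and without shC8 3 it was -0.26. The change of DUSP4 minus that of DUSP1 was -0.52 (SE 0.254, exact two-sided permutation p = 0.1), and -0.28 without shC8 3.

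The make-up of the 5 phosphatase RNAs is given as a description, with no test, and was added after the values were seen. FPKM is scaled by length, so values of different genes can be summed. The sum came to 225.8, 280.4 and 235.7 FPKM across shCTR and 167.3, 190.6 and 193.4 across shC8. DUSP6 made up 34.2%, 32.4% and 26.2% of it in shCTR and 21.6%, 21.4% and 15.0% in shC8. The share of DUSP1 was 49.2 ± 3.97% and 60.1 ± 6.47% (SD, n = 3 each). The genes for the cytoplasmic phosphatases, DUSP6 and DUSP7 together, went from 85.2 ± 13.9 to 45.0 ± 6.05 FPKM with no overlap. The nuclear group of DUSP1, DUSP4 and DUSP5 went from 162.1 ± 20.8 to 138.7 ± 16.1 FPKM with overlap (SD, n = 3 each). Each sum is mostly 1 gene. DUSP7 was 10.4% of the cytoplasmic sum in shCTR and 21.7% in shC8, and the rest was DUSP6. DUSP1, with means of 121.5 FPKM in shCTR and 110.9 in shC8, led the nuclear sum, which also holds the fall of DUSP4.

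**Figure D2:**
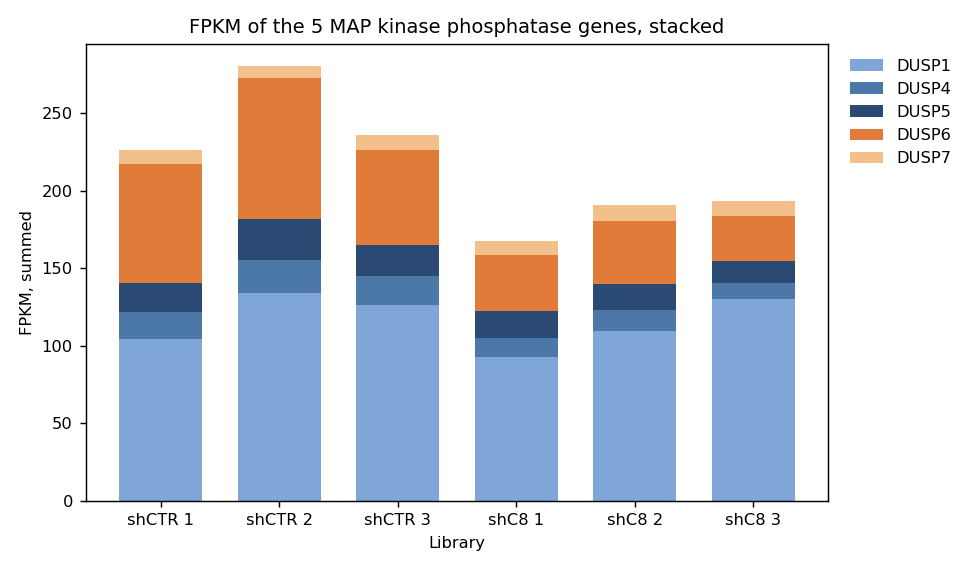
FPKM of DUSP1, DUSP4, DUSP5, DUSP6 and DUSP7 stacked for each library (vertical axis, summed FPKM from 0), with nuclear phosphatases in blue and cytoplasmic ones in orange. The DUSP6 block is between 61.8 and 90.8 FPKM in shCTR and between 29.1 and 40.8 in shC8, and the DUSP1 block overlaps between the groups.

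Of the Sprouty genes, neither passed the test. SPRY2 and SPRY4 encode adaptors that block signalling between receptors and RAS or RAF. SPRY2 (minus strand of chromosome 13, 80335976 to 80340951) had the highest FPKM of the 10 genes, at 125.6, 157.6 and 168.3 in shCTR and at 147.1, 139.5 and 154.0 in shC8. All of its shC8 values lay inside the shCTR range. The change was -0.03 (SE 0.112, limma adjusted p = 0.906), and its sign turned when shCTR 2, shCTR 3 or shC8 2 was left out, with values up to 0.06.

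SPRY4 (minus strand of chromosome 5, 142310427 to 142326455) gave 7.93, 9.10 and 11.1 FPKM across shCTR and 7.34, 7.71 and 7.80 across shC8. Its groups were apart by a narrow gap between shCTR 1 and shC8 3, and the change of -0.26 did not pass (SE 0.111, limma adjusted p = 0.171). Without shCTR 3 it was -0.14. SPRY2 made up 94.2 ± 0.36% of the summed FPKM of this pair of genes in shCTR and 95.1 ± 0.264% of it in shC8 (SD, n = 3 each). The change of SPRY2 minus that of SPRY4 was 0.23 (SE 0.0682, exact two-sided permutation p = 0.1).

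The SPRED genes encode membrane proteins that bring the RAS inhibitor neurofibromin to RAS, and SPRED2 fell. SPRED2 (minus strand of chromosome 2, 65310851 to 65432637) gave 21.8, 20.8 and 17.1 FPKM across shCTR and 14.4, 15.0 and 11.8 across shC8. Replicate 3 was the lowest of each group, and the shC8 level was 66.1%, 71.8% and 69.4% of the same-numbered shCTR level. The change was -0.50 (SE 0.117, limma adjusted p = 0.0344). The call held in 1 of the 6 fits that left out 1 library, the one without shCTR 3, and in the others the adjusted p rose to between 0.0532 and 0.108. With low or high column number as a term the adjusted p was 0.0551, and with the replicate block it was 0.00293.

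SPRED1 (plus strand of chromosome 15, 38252326 to 38357249) gave 43.7, 43.3 and 44.2 FPKM across shCTR and 40.0, 39.4 and 37.8 across shC8. Libraries of a group differed little, and the groups were apart. The change was small at -0.16 and did not pass (SE 0.0557, limma adjusted p = 0.105), while under median-of-ratios scaling the adjusted p was 0.0444. The change of SPRED1 minus that of SPRED2 was 0.34 (SE 0.134, exact two-sided permutation p = 0.1). The adjusted p over the 5 pairs of related genes compared was 0.1 for each.

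ETV5 (minus strand of chromosome 3, 186046308 to 186110318) gave 24.0, 25.2 and 23.8 FPKM across shCTR and 21.4, 20.1 and 18.4 across shC8. The groups were apart, and the fall was modest, with a change of -0.27 (SE 0.0712, limma adjusted p = 0.0486). The call lay close to the threshold. It held in 1 of the 6 fits without 1 library, the one without shC8 1, and the adjusted p rose to 0.145 without shC8 3. With low or high column number as a term it was 0.0751. ETV5 overlaps DGKG, a diacylglycerol kinase gene on the same strand, by 4651 bases, and DGKG went from 5.87 to 4.41 FPKM (limma adjusted p = 0.0544). How reads in the overlap were assigned is not stated in the sources read. GENCODE 29 has antisense genes that overlap DUSP6, SPRY4 and ETV5 and 1 that spans all of DUSP1, which carry no row of that name in the table, and the use of strand in counting is not stated, so their reads could not be told apart.

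**Figure D3:**
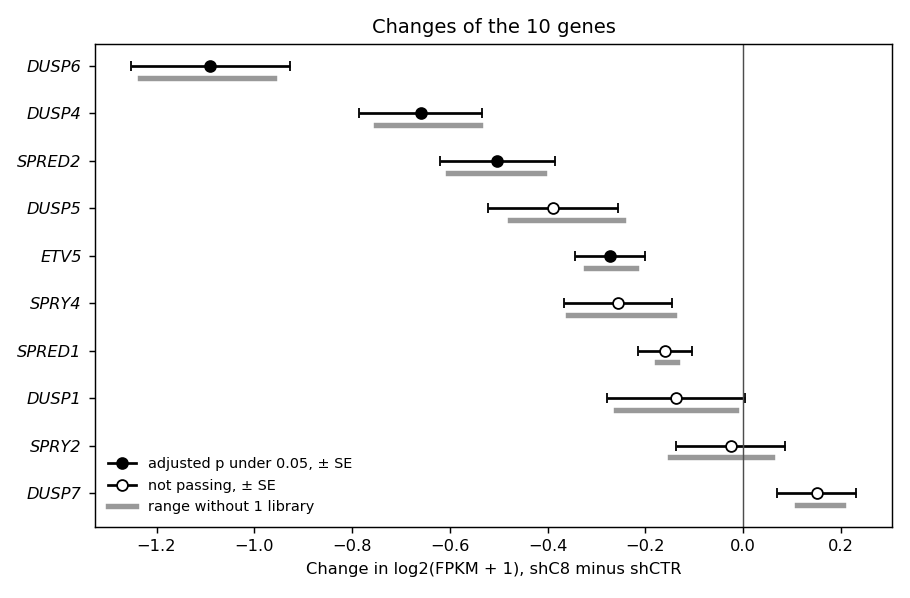
Change in log2(FPKM + 1), shC8 minus shCTR (horizontal axis), of the 10 genes, with SE bars. Filled points passed an adjusted p under 0.05, and grey bars give the range when 1 library at a time was left out. DUSP6 stands farthest from 0 at -1.09, and DUSP7 is the single gene to the right of 0.

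The order of levels shifted in places. In shCTR it ran, from high to low, SPRY2, DUSP1, DUSP6, SPRED1, ETV5, DUSP5, SPRED2, DUSP4, SPRY4 and DUSP7. Library ranges of neighbours overlapped for SPRY2 and DUSP1, along ETV5, DUSP5, SPRED2 and DUSP4, and for SPRY4 and DUSP7. SPRY2 was higher than 95.3% of tested genes and DUSP7 than 40.1%. In shC8 the mean of DUSP6 was below that of SPRED1 (35.3 ± 5.9 and 39.1 ± 1.17 FPKM, SD, n = 3 each), with ranges that overlapped. DUSP7 was above SPRY4 in all 3 shC8 libraries, and their ranges there did not overlap.

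Among libraries with low column numbers the change of DUSP6 was -0.91, and among those with high numbers -1.37. The values were -0.51 and -0.86 for DUSP4, -0.40 and -0.61 for SPRED2, -0.15 and -0.37 for ETV5, and -0.13 and -0.73 for DUSP5. DUSP1 was at -0.31 and -0.16, SPRY4 at -0.32 and -0.21, and SPRED1 at -0.13 and -0.16. Each of these genes and of the 5 before them was lower in shC8 in both sets. SPRY2 was at 0.02 and -0.10, and DUSP7 at 0.01 and 0.28. Neither set of libraries has more than 2 of a group, so no test was made within it.

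DUSP4, SPRED2 and ETV5 followed DUSP6 across the 6 libraries, with Pearson r of log2(FPKM + 1) of 0.967, 0.970 and 0.949. SPRED1 and DUSP5, which did not pass, were at 0.914 and 0.883, and SPRY4 was at 0.526. DUSP1 and SPRY2 did not follow it (r of 0.24 and -0.06), and DUSP7 ran the other way (r of -0.774). The libraries share their group, so these are descriptions over 6 points. Outside the 10 genes the highest r belonged to BMPER (0.999), RAET1E (0.997), TRIM8 (0.996), ASB1 (0.995) and GMDS (0.995), each with the same library order as DUSP6. BMPER, the highest, gave 7.87, 8.45 and 7.26 FPKM across shCTR and 6.01, 6.30 and 5.42 across shC8. In all, 12 genes outside the 10 had r above 0.99, and 63 had exactly the library order of DUSP6.

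The rest of the pathway was read through lists. Of 15 tested inhibitors of receptor and RAS signalling outside the 10 genes, 1 fell and 1 rose (13.3% called, beside 12.1% of all tested genes). GRB14, an adaptor that inhibits insulin receptor signalling, gave 8.07, 7.72 and 6.72 FPKM across shCTR and 2.04, 2.74 and 2.54 across shC8, with no overlap. Its change of -1.31 was larger in size than that of DUSP6 (SE 0.106, limma adjusted p = 0.00132) and its call held in all 6 fits without 1 library. DAB2IP, a RAS GTPase activator gene, was at 1.09 ± 0.0605 FPKM in shCTR and rose by 0.49 to 1.94 ± 0.342 (SD, n = 3 each), with a limma adjusted p of 0.0319, and kept its call in 1 of the 6. The median of this list was 0.01, and -0.04 under median-of-ratios scaling.

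DUSP10, which encodes a phosphatase of p38 and JNK, gave 8.30, 7.73 and 7.38 FPKM across shCTR and 11.2, 11.4 and 11.7 across shC8. It rose by 0.50 (SE 0.0674, limma adjusted p = 0.00627) with groups well apart, and the call held in all 6 fits without 1 library. The list of other MAP kinase phosphatases and relatives had 3 tested genes, DUSP10, DUSP16 and the relative STYXL1. DUSP10 alone of them passed, and their median was 0.08. DUSP2, DUSP8 and DUSP9 did not reach a mean of 1 FPKM.

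Of 23 tested ERK output genes outside the 10, 7 fell (30.4%) and 1 rose, and 15 missed the threshold. Over all tested genes 4.94% were called lower. The replicate block gave 12 falls and 1 rise, where 10.6% of all genes were called lower. PHLDA1 stands both on this list and on that of the other inhibitors. The median was -0.34. LIF, a cytokine gene, changed by -1.89 (limma adjusted p = 0.00847), VGF, a secreted neuropeptide precursor gene, by -0.89 (adjusted p = 0.00923) and MAFF, a small MAF factor gene, by -0.85 (adjusted p = 0.0259). VGF gave 10.3, 12.7 and 15.4 FPKM across shCTR and 7.02, 5.92 and 6.12 across shC8, and its groups were apart. MAFF kept its call in 2 of the 6 fits without 1 library (adjusted p up to 0.0894). The single rise was JUNB, an AP-1 subunit gene, by 0.35 (limma adjusted p = 0.0158), a call that held in 4 of the 6 such fits.

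Among 23 tested genes of the cascade itself, from SOS and RAS to RAF, MEK, ERK and the RSK kinases, limma called 0. At an unadjusted p under 0.05, 6 were higher and 0 lower, and with the replicate block 5 were called higher and 1 lower. The median of the list was 0.07.

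Of 11 tested growth factor genes, limma called 3 lower (27.3%) and 0 higher, beside 4.94% of all tested genes called lower. At an unadjusted p under 0.05, 5 were lower and 3 higher, where 11.4% of all genes were lower. The replicate block gave the same counts, where 10.6% of all genes were called lower. EREG, FGF2 and TGFA, which encode ligands of the EGF and FGF receptors, changed by -2.38, -1.31 and -1.19, and their calls held in all 6 fits without 1 library. TGFA gave 41.3, 50.1 and 53.8 FPKM across shCTR and 20.8, 22.0 and 19.0 across shC8, with groups far apart. Of 7 tested receptor kinase genes, limma called 2 higher and 0 lower (28.6% called, beside 12.1% of all tested genes in either direction). At an unadjusted p under 0.05, 2 were higher and 1 lower, with the same counts under the block. PDGFRB changed by 0.54 (limma adjusted p = 0.0132) and AXL by 0.43 (adjusted p = 0.017), and they kept their calls in 5 and 3 of the 6 fits. EGFR did not pass, at -0.12 (limma adjusted p = 0.343). The median was -0.20 for the growth factor genes and 0.07 for the receptor genes.

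**Figure D4:**
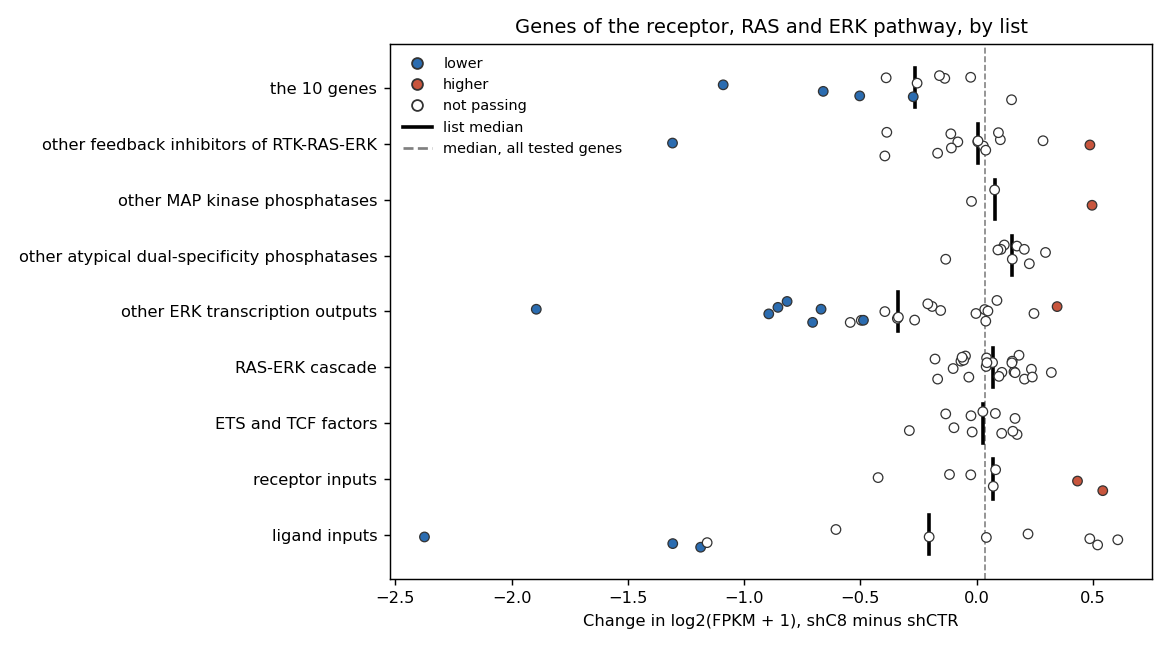
Change in log2(FPKM + 1), shC8 minus shCTR (horizontal axis), of every tested gene on each list, with blue and red for genes called lower and higher and white for genes that did not pass. Black bars are list medians and the dashed line is the median of all tested genes (0.04). The medians of the 10 genes (-0.26), of the other ERK outputs (-0.34) and of the ligands (-0.20) lie farthest left of the line. Those of the other inhibitors (0.01) and the ETS factors (0.03) lie just left of it. Genes such as DUSP7 and JUNB lie to its right, and 17 of the 23 other ERK outputs had a negative change. The median of the cascade genes is 0.07.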

How the data were processed

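Per the labels' protocols, total RNA of 6 U87 cultures went through DNase digestion and ribosomal depletion into a kit for stranded total RNA libraries. The authors deposited FPKM per gene symbol and library. The submitters' processing notes list TopHat, Cufflinks and Cuffdiff and the build hg38, with no version and no order of use. Which annotation was used and whether libraries were scaled to each other is not given in the sources used here. Counts cannot be had from FPKM, and no test of counts was made.

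The test was limma 3.58.1 in R 4.3.3 on log2(FPKM + 1), two-sided and moderated with a trend over the mean, for genes whose mean reached 1 FPKM, with p-values adjusted over all 11598 tested genes. Fold changes on this scale understate changes of low genes. Pairs of related genes were compared by exact permutation of libraries. Python 3.11.15 was used for tables and figures. The fit was tested on simulated data.

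The 10 genes and the 8 other pathway lists were chosen with earlier results of these data known. The text names the 10 genes, CASP8, up to 3 passing genes of largest change per list, the 5 genes most like DUSP6 and 3 marker genes of highest FPKM per marker list. DGKG, JUNB, EGFR and the other genes named outside this rule were chosen after their values were seen. Of the CD68-led leukocyte list and the endothelial and epithelial lists only sums and 3 genes are given. Some items are not reported here.

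Libraries with the same number deviated together from their group means (r across genes of 0.397, 0.266 and 0.291), so the replicate block took numbers to pair the samples. This pairing rests on the data, since no label says it. The main limma fit and the permutation tests did not use it and took libraries as unpaired. The motif search also covered a loose NF-kB pattern and a short form of the cyclic AMP element, which are not given. Alternatives were another pseudocount (0.1), other filters, quantile and median-of-ratios scaling, the replicate block, a term for the column number range, no trend, and each library left out. Gene positions come from GENCODE 29 and promoter sequences from RefSeq (GRCh38.p14).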

Additional observations from a re-analysis of the deposited data

How the results depend on the processing

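FPKM without counts gives no counting error, and with 3 libraries a group the spread between libraries limits every call. DUSP6 and CASP8 kept their calls under every alternative run. Of the 5 pair differences none changed sign with a pseudocount of 0.1 or without any 1 library, and that of DUSP4 and DUSP1 moved to -0.28 without shC8 3. With the replicate block DUSP5 was called (-0.39, adjusted p = 0.041), 1862 genes were called higher and 1224 lower, and the block ended no call among the 10 genes. Calls under the block were 2 higher and 3 lower for the other inhibitors, 5 and 1 for the cascade, and 1 and 1 for the ETS factors. They were 3 higher and 5 lower for ligands, 2 and 1 for receptors, 1 and 12 for ERK outputs, and 1 higher for the atypical phosphatases. Without a filter on low values 2 of the 10 genes were called lower, beside 2.15% of 18724 genes. SPRED2 (-0.50, adjusted p = 0.0765) and ETV5 (-0.27, adjusted p = 0.0704) were lost, and DUSP4 stayed barely under the threshold (-0.66, adjusted p = 0.04997). Low or high column number as a term left 2 of the 10 called lower, and SPRED2 was at -0.50 and ETV5 at -0.26. Over all tested genes this fit called 511 lower (4.41%) and 733 higher. Moderation without a trend ended the call of ETV5 (-0.27, adjusted p = 0.0603), and under median-of-ratios scaling SPRED1 was called (-0.21). The cause of these changes was not tested.

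Leaving out 1 library gave between 1 and 3 falls among the 10 genes, with 1 without shCTR 2 or shC8 3 and 2 without shCTR 1 or shC8 2. Changes ranged from -0.75 to -0.54 for DUSP4, -0.60 to -0.41 for SPRED2, -0.32 to -0.22 for ETV5, -0.26 to -0.01 for DUSP1, -0.36 to -0.14 for SPRY4, -0.48 to -0.25 for DUSP5 and -0.15 to 0.0601 for SPRY2, which turned to 0.0132 without shCTR 2, 0.0601 without shCTR 3 and 0.0106 without shC8 2. Over all genes, between 261 and 699 were called higher and between 216 and 647 lower. On the lists the ranges were 0 to 1 higher and 1 to 2 lower for the other inhibitors (median -0.13 to 0.0181), 0 to 1 higher for ERK outputs, 0 to 2 higher and 0 to 1 lower for receptors, and a median of -0.395 to -0.0302 for ligands.

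List values that moved otherwise were as follows. For the other inhibitors, 2 were lower with a pseudocount of 0.1 and with median-of-ratios scaling, 2 higher without a filter, 0 higher at a minimum mean of 5 FPKM (median -0.0807), and 0 higher and 3 lower with the column number range (median -0.0534). Cascade genes called higher were 1 at a minimum of 5 FPKM, 2 under quantile normalization and 2 with the column number range, and their median was 0.0257 under median-of-ratios scaling. Receptors called higher were 1 at a minimum of 5 FPKM, and their median was 0.0238 without a filter and 0.0226 under median-of-ratios scaling. The ligand median was 0.0351 without a filter and -0.334 with the column number range. The median of the other MAP kinase phosphatases and relatives was 0.24 at a minimum of 5 FPKM and 0.0137 under quantile normalization. That of the atypical phosphatases was 0.21 with a pseudocount of 0.1.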

Other observations

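Small dual-specificity phosphatases that lack a MAP kinase binding domain were measured as well. Of 9 tested, limma called 0, with 1 higher at an unadjusted p under 0.05 and 1 with the replicate block. That gene was DUSP3, with 35.2, 37.7 and 33.5 FPKM across shCTR and 42.8, 43.8 and 38.4 across shC8, with groups that did not overlap (change 0.23, limma adjusted p = 0.0931). The changes of the 9 had a median of 0.15, and 1 of them, that of DUSP12, was negative (-0.13).

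Of 11 tested genes on a list of ETS and related factors, CIC included, limma called 0, with 2 higher and 1 lower at an unadjusted p under 0.05 and 1 higher and 1 lower with the replicate block. Their median was 0.03, and -0.02 under median-of-ratios scaling. CIC, the repressor whose word was found in the DUSP6 window, was at 7.23 FPKM in shCTR and 8.20 in shC8 (limma adjusted p = 0.25). ETV4 and ETV1, the close relatives of ETV5, were on the list of ERK outputs. ETV4 gave 5.32, 5.39 and 6.34 FPKM across shCTR and 3.95, 4.87 and 4.07 across shC8, with groups apart (change -0.34, limma adjusted p = 0.0685). For ETV1 the groups overlapped (change -0.34, limma adjusted p = 0.135). With the replicate block both were called lower, with adjusted p of 0.0453 for ETV4 and 0.0232 for ETV1. These genes were named after their values were seen.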
